A study of Mus musculus with 16 samples.

Results

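The genes described here are 7 of the 24411 gene symbols counted in mouse pancreas: the prolactin receptor *Prlr*, the feedback genes *Cish* and *Socs2*, the tryptophan hydroxylases *Tph1* and *Tph2*, the serotonin receptor *Htr2b* and the oxytocin receptor *Oxtr*. They were picked as genes of beta cell adaptation in pregnancy. *Oxtr* was selected on its large rise in these same data, so its difference between obese and lean mice is given as a description without a test. All 7 were among the 17548 symbols that also carry a normalized count.

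RNA from whole pancreas was sequenced from 16 male C57BL6/J mice collected at 12 weeks of age, with 1 library per mouse and separate mice as the replicates. The 3 groups were lean wild-type (WT, 5 mice), Lep(ob/ob) without treatment (7 mice) and Lep(ob/ob) treated with a CCK receptor antagonist (CCKRi, 4 mice). Mice of both Lep(ob/ob) groups carry the *Lep* allele that yields no working leptin and become obese. WT mice weighed 27.7 ± 3.22 g (SD, n = 5). Untreated Lep(ob/ob) mice weighed 51.0 ± 1.98 g (SD, n = 7), and CCKRi mice weighed 54.8 ± 2.22 g (SD, n = 4). The labels give WT mice as bred in house and Lep(ob/ob) mice as purchased, whereas the methods name 1 supplier for both, so origin and genotype cannot be told apart. The antagonists were taken in drinking water for 6 weeks. Mice 69 and 72 received proglumide at 0.1 mg/mL, and mice 74 and 76 received lorglumide at 0.05 mg/mL. Both drugs block CCK receptors. Of the 2 sequencing batches in the labels, A comprised 4 Lep(ob/ob) and 3 WT mice. Batch B comprised the 4 CCKRi mice, 3 Lep(ob/ob) mice and 2 WT mice.

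Each mouse had 9.87 to 34.5 M counts. Depth differed by batch, at 19.2 to 34.5 M in A and 9.87 to 15.9 M in B. The share of counts on the 50 most abundant genes was 79.2% or more in every batch A library and at most 77.1% in batch B. All 8 acinar markers, which define most of the pancreas, were detected in every group. Their mean log2 CPM was lowest in mice 69 (10.82) and 463 (11.22), which had the most *Oxtr* and *Tph2*. Its median was 13.13 in WT, 12.41 in Lep(ob/ob) and 11.57 in CCKRi mice, though in batch B the 2 WT mice had 12.32 and 11.69. *Ptf1a*, an acinar transcription factor, fell by 1.03 on the log2 scale in Lep(ob/ob) mice (adjusted p = 0.00561, edgeR), and no other acinar marker passed in the 3 comparisons. The part of acinar content in the results was not tested. The leptin transcript itself was detected in every group, with a median of 42.0 normalized counts in WT and 1367 in Lep(ob/ob) mice. The ob allele is a point mutation that leaves a transcript, so the *Lep* level does not check the genotype labels.

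Prolactin and placental lactogens bind the prolactin receptor on beta cells, which signals through JAK2 and STAT5. CISH and SOCS2 are transcribed in response to STAT5 and damp the same receptors. In pregnancy this signal is known to raise tryptophan hydroxylase in islets, and the serotonin made there acts back on beta cells through the HTR2B receptor. The oxytocin receptor couples to Gq and calcium release and is best known in uterus, breast and brain, and it is also present in islets and in adipocytes.

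The 7 genes fell into 3 kinds of pattern. *Oxtr* and *Tph2* were higher in every obese mouse than in any lean mouse, and among obese mice they were highest in those with the most adipocyte transcript. Their rise is a description, since *Oxtr* was chosen for it and *Tph2* passed the low-count filter only through the obese mice. Of all genes tested, 2.92% were higher than WT with no overlap in Lep(ob/ob) mice and 6.27% in CCKRi mice. *Prlr* was also higher in obese mice, and its level was highest in the mice with the most beta cell transcript. *Cish* and *Socs2* were expressed in all mice without passing the test between groups, and *Tph1* and *Htr2b* had at most 13 reads in any library.

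**Figure D1:**
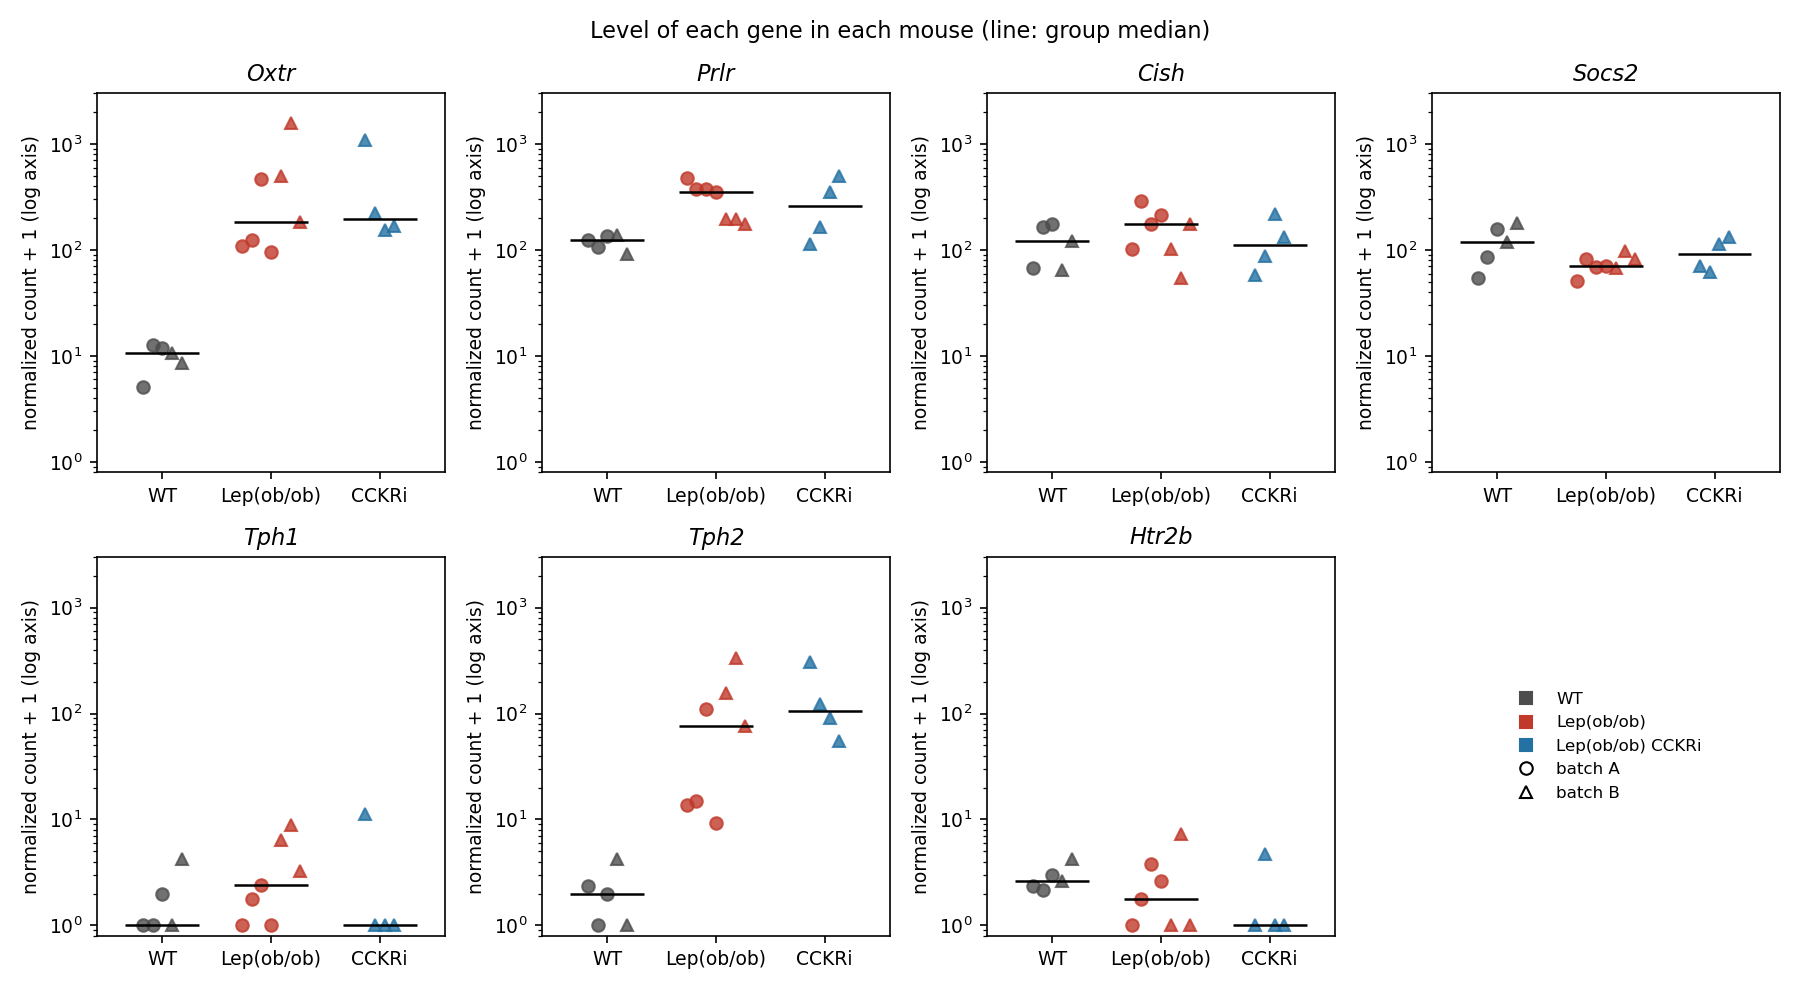
Normalized count plus 1 on a log axis for each gene in each mouse, by group, with circles for batch A, triangles for batch B and a line at the group median. *Oxtr*, *Tph2* and *Prlr* are higher in all 7 Lep(ob/ob) mice than in any of the 5 WT mice, and the CCKRi mice spread over the Lep(ob/ob) range or beyond it. Of all genes tested, 2.92% were higher in Lep(ob/ob) mice with no overlap. *Oxtr* was chosen for its rise, and *Tph2* passed the low-count filter only through the obese mice.

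*Prlr* encodes the receptor for prolactin and placental lactogen. It spans chr15:10177238-10349180 on the plus strand of GRCm38. In WT it stood at 122, 104.7, 135, 136 and 90.8 normalized counts (raw counts divided by 1 size factor per mouse). In Lep(ob/ob) mice the lowest value was 175, the median 349 and the highest 482. No WT mouse reached the lowest Lep(ob/ob) mouse. The rise was 1.30 on the log2 scale (SE 0.31, 95% interval 0.65 to 1.95, adjusted p = 0.0132, edgeR quasi-likelihood test over all genes, higher in 7 of 7 mice). For scale, 9.07% of the 13660 genes tested differed in this comparison in either direction, 5.93% were higher in Lep(ob/ob), and 2.92% were higher with no overlap between the groups. An exact permutation test of the difference within batches gave p = 0.00286 (two-sided), the smallest of 350 regroupings.

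The *Prlr* values separated by batch. The 4 Lep(ob/ob) mice of batch A held 349 to 482 normalized counts against 104.7 to 135 in their 3 WT mice. The 3 Lep(ob/ob) mice of batch B held 175 to 197 against 90.8 to 136 in their 2 WT mice. Groups did not overlap in either batch. With batch A alone the log2 fold change was 1.75 (adjusted p = 7.7e-05), and with batch B alone it was 0.70 and did not pass the test (adjusted p = 0.499). Over all genes, 1145 passed with batch A alone and only 8 with batch B alone. The genotype by batch interaction for *Prlr* was -1.03 on the log2 scale (SE 0.26, unadjusted p = 0.00202), and did not pass after adjustment over all genes (adjusted p = 0.330). In that test 0% of 13189 genes passed by edgeR, with 1574 at an unadjusted p under 0.05, and DESeq2 passed 52. Without Lep(ob/ob) mouse 464 the *Prlr* interaction passed with an adjusted p of 0.0396.

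Beta cell markers moved with *Prlr*. The list of 9 markers (*Ins1*, *Ins2*, *Iapp*, *Mafa*, *Nkx6-1*, *Pdx1*, *Ucn3*, *G6pc2*, *Slc30a8*) was detected in full in every group, with none at 0. In WT its summed level ran from 18952 to 24332 normalized counts. Lep(ob/ob) mice ran from 41911 to 209052, and CCKRi mice from 24459 to 231142. Against WT, 5 of the 9 markers rose in Lep(ob/ob) and 6 of 9 in CCKRi mice, and none fell. Of all genes tested, 5.93% rose in Lep(ob/ob) and 4.22% in CCKRi mice. As whole pancreas was pulverized, more cells of a type and more RNA per cell cannot be told apart here. With the mean log2 CPM (counts per M) of the markers in the model, the *Prlr* fold change went from 1.30 to 0.31 on the log2 scale and no longer passed (adjusted p = 0.306). That mean did not overlap between WT (4.09 to 4.54) and Lep(ob/ob) mice (4.56 to 6.86). Fits with these markers thus cannot part marker level from genotype between these 2 groups, for *Prlr* or any other gene. Among the 11 obese mice, treated or not, *Prlr* followed the beta cell markers with Pearson r = 0.90 (permutation p = 7e-05, adjusted 0.000233) and Spearman rho = 0.88 (permutation p = 0.00068, adjusted 0.0017). Both p-values were adjusted over 10 relations, which paired 5 genes with the beta cell and adipocyte markers. Without the 2 mice farthest from the median marker level r was 0.88 over 9 mice. It was 0.85 in the 7 obese mice of batch B and 0.86 in the 7 untreated mice, while batch A held only 4 obese mice. For none of the 10 relations was a p-value computed within a single batch, and the part of batch in them was not tested. With the adipocyte markers *Prlr* had r = -0.71 (permutation p = 0.0149, adjusted 0.0212) and rho = -0.61 (permutation p = 0.0515, adjusted 0.065), and r was -0.57 without the 2 farthest mice. Markers of the other islet cells were above WT in part of the obese mice. The 6 alpha, delta and PP cell markers had a mean log2 CPM of 4.03 to 4.44 in WT. Batch A mice of Lep(ob/ob) genotype had 5.38 to 5.43, and batch B ones 3.69 to 4.97. It was 3.39, 5.29, 5.53 and 6.14 in CCKRi mice 69, 72, 74 and 76. Of the 4 tested, 1 rose in Lep(ob/ob) mice, *Ppy* (2.59, adjusted p = 0.00498), and their part in the *Prlr* result was not tested.

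CCKRi mouse 69 had the lowest beta cell marker level of all 16 mice (mean log2 CPM 3.79) and a *Prlr* level of 112 normalized counts, inside the WT range. Mouse 463, with a marker level of 4.56 just above the highest WT mouse at 4.54, had 197 normalized counts of *Prlr* against 136 in the highest WT mouse. The 3 untreated Lep(ob/ob) mice of batch B did not follow the relation, with marker levels of 4.56, 4.96 and 5.80 beside *Prlr* levels of 197, 194 and 175. CCKRi mouse 76 and Lep(ob/ob) mouse 441 had marker levels of 6.78 and 6.86 and the highest *Prlr* values, 493.4 and 482.

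*Cish* encodes a STAT5-induced inhibitor of cytokine receptor signalling and lies at chr9:107296026-107302784 on the plus strand. Its exons overlap *Gm17040* by 261 bases and *Gm17041* by 479 bases on the other strand, and the strand setting of the counting is not given in the sources used here. It stood at 67.3, 165, 175, 63.2 and 121 normalized counts in WT. The Lep(ob/ob) mice ran from 53.0 to 287 with a median of 175. Of the 7 Lep(ob/ob) mice, 4 lay above the highest WT mouse (2 of them by less than 1 normalized count), 2 inside the WT range and 1 below it. The log2 fold change was 0.39 (SE 0.37, 95% interval -0.40 to 1.17, adjusted p = 0.570). The exact permutation test within batches gave p = 0.423. With the beta cell markers in the model the estimate turned to -0.54 on the log2 scale and did not pass either, in a fit that cannot part marker level from genotype. Among the 11 obese mice *Cish* had r = 0.73 with beta cell markers (permutation p = 0.0106, adjusted 0.0176) and rho = 0.61 (permutation p = 0.052, adjusted 0.065). Its r was 0.38 without the 2 mice farthest from the median, so over all obese mice the relation rests on those mice, while r was 0.79 in the 7 obese mice of batch B and 0.70 in the 7 untreated mice. With adipocyte markers *Cish* had r = -0.67 (permutation p = 0.0237, adjusted 0.0296) and rho = -0.65 (permutation p = 0.037, adjusted 0.0617), with r = -0.24 without the 2 farthest mice, -0.87 in batch B and -0.62 in the untreated mice.

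*Socs2* encodes a suppressor of cytokine signalling that acts on the growth hormone receptor and lies at chr10:95385362-95417180 on the minus strand. Its WT values were 53.8, 84.7, 156, 118 and 178 normalized counts. In Lep(ob/ob) mice the lowest was 49.5, the median 69.4 and the highest 97.5. Of the 5 WT mice, 3 lay above every Lep(ob/ob) mouse and the others lay inside their range. The log2 fold change was -0.70 (SE 0.25, 95% interval -1.22 to -0.17) and missed the threshold (adjusted p = 0.0954). It passed without WT mouse 5489, whose *Socs2* was the lowest of the WT group (adjusted p = 0.038), and with beta cell markers in the model (-1.07, adjusted p = 0.0181). The fit with beta cell markers passed 4077 genes, against 1239 in the main fit, and it cannot part marker level from genotype. The exact permutation test within batches gave p = 0.04 (two-sided), which does not pass after adjustment for the 4 genes so tested. It does pass with pseudocount 5 (unadjusted p = 0.0371), with log2 TMM CPM (0.0343), without WT mouse 5489 (0.00667) and without Lep(ob/ob) mouse 472 (0.035). The 4 genes include *Tph2*, which passed the low-count filter only through the obese mice. Passes that rest on its small p are no support, and adjustment without *Tph2* was not run. Leaving out any other mouse gave an unadjusted p of 0.045 to 0.113 by this exact test, and no pass. For *Socs2*, 4.53% of the 50-base stretches in its transcripts are found in other genes too.

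The letters TTCNNNGAA, which STAT5 is known to bind, were searched in the RefSeq promoter windows of build GRCm38.p6, each from 250 bases before to 50 bases after a start. The motif reads alike on both strands. It occurs in 8.30% of all 32851 windows. Windows were found for 6 of the 7 genes, 9 in all, and 2 of the 9 held the motif. At the start of *Cish* it occurs in a pair, at bases 1 and 12 counted from the start. Of the 5 GENCODE transcripts for *Cish*, 1 holds the 30 bases after that start, and the window begins inside an annotated exon. Before the *Prlr* start listed second the motif lies 110 bases upstream. No GENCODE transcript of the 12 for *Prlr* holds the 30 bases after that second start. The start whose first 30 bases are in 11 of the 12 has no such motif in its window. The 30 bases around each are shown because both genes belong to this pathway, 5′ to 3′ on the plus strand with the motif in capitals.
Cish, chr9:107296654-107296683: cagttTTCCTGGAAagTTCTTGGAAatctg
Prlr, chr15:10223785-10223814: ggcaaaatgagTTCTAGGAAtaagggatat
A match of letters is a description of the window, and binding was not measured here.

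Transcripts of the receptor's ligands were at or near 0 in pancreas, and ligand from other organs was not measured. *Prl*, which encodes prolactin, had 0 reads in all 16 libraries, which allows up to 3 reads in a library. None of the 7 lactogen ligand genes passed the low-count filter. Of the 10 genes listed for the growth hormone receptor and JAK-STAT signalling, 9 were tested by edgeR and none passed in the 3 comparisons between groups. Between Lep(ob/ob) and WT, 4 of the 9 had an unadjusted p under 0.05, where 23.8% of all genes did, and their median log2 fold change was 0.01 beside -0.02 over all genes. Of 13 cell cycle and islet genes tied to the lactogen response, 2 rose and 1 fell in Lep(ob/ob) mice, where 9.07% of all genes passed in either direction, and the median log2 fold change was 0.46 beside -0.02 over all genes. *Tnfrsf11b*, which encodes osteoprotegerin, ran from 51.8 to 117 normalized counts in Lep(ob/ob) and from 23.8 to 35.7 in WT, with no overlap (log2 fold change 1.56, SE 0.27, adjusted p = 0.00149). *Foxm1*, a transcription factor of dividing cells, rose by 1.06 (SE 0.31, adjusted p = 0.0435) with ranges that met. *Cdkn1b*, an inhibitor of the cell cycle, fell by 0.53 on the log2 scale (SE 0.13, adjusted p = 0.0164) with no overlap.

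Serotonin is made from tryptophan by tryptophan hydroxylase and then by *Ddc*. TPH1 is the hydroxylase of gut and pregnant islets, and TPH2 is best known as that of serotonergic neurons. In obese pancreas *Tph2* had many more reads than *Tph1*, with 848 against 20 in Lep(ob/ob) mice, and both had 4 reads in WT. It lies at chr10:115078641-115185022 on the minus strand, and no 50-base stretch of its transcripts is shared with another gene. In WT its raw counts were 1, 0, 1, 2 and 0, or 0 to 3.24 normalized counts. In Lep(ob/ob) mice the lowest value was 8.16 normalized counts, the median 75.5 and the highest 334. All 7 lay above the highest WT mouse. *Tph2* passed the low-count filter only through the obese mice, so that its entry and its rise share a source, and its differences from WT are given as descriptions without a p-value. The fitted log2 fold change was 6.33 (SE 1.10, 95% interval 3.99 to 8.66). With 4 reads in all WT mice this estimate depends on the prior count. The ratio of mean normalized counts was 90.4, and the counting error of the 4 WT reads alone gives 35.3 to 331.7. Without Lep(ob/ob) mouse 463 the ratio was 55.6.

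Within batch A, 3 of 4 Lep(ob/ob) mice held 8.16 to 14.0 normalized counts of *Tph2* and mouse 417 held 108. Within batch B the 3 Lep(ob/ob) mice held 75.5, 154 and 334. Fitted in either batch alone, the log2 fold change had the same direction (5.45 in batch A and 6.97 in batch B).

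*Tph1* is at chr7:46644641-46672537 on the minus strand. It had 4 reads in 2 of 5 WT mice, 20 reads in 5 of 7 Lep(ob/ob) mice and 13 reads in CCKRi mouse 69 alone. Its highest level was 10.2 normalized counts. *Htr2b*, at chr1:86099026-86111970 on the minus strand, had 8 reads in 5 WT mice, 16 reads in 4 Lep(ob/ob) mice and 4 reads in CCKRi mouse 72. Its exons overlap those of *Psmd1* on the other strand by 252 bases, with the same limit on strand as for *Cish*. *Tph1* and *Htr2b* did not pass the low-count filter, and a difference between groups was not detectable at this depth.

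Among 12 further genes of serotonin synthesis, storage and breakdown, 11 were tested, 3 rose in Lep(ob/ob) mice and none fell, where 5.93% of all genes rose. Their median log2 fold change was 0.28 beside -0.02 over all genes. *Slc6a4*, the serotonin transporter, ran from 48.7 to 122 normalized counts in WT and from 101 to 279 in Lep(ob/ob) (log2 fold change 1.42, SE 0.21, adjusted p = 0.00044). *Ddc*, the decarboxylase after the hydroxylase, ran from 94.1 to 250 in WT and from 126 to 629 in Lep(ob/ob) (1.08, SE 0.32, adjusted p = 0.0415). *Maob*, which breaks down amines, rose by 0.67 (SE 0.20, adjusted p = 0.0432). The ranges of all 3 overlapped with WT. None of the 13 other serotonin receptor genes passed the low-count filter.

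*Oxtr*, at chr6:112473683-112489943 on the minus strand, showed 4.04, 11.8, 10.99, 9.73 and 7.57 normalized counts in WT. In Lep(ob/ob) mice the lowest value was 94.7, the median 185 and the highest 1563, in mouse 463. Every Lep(ob/ob) mouse was above every WT mouse, in batch A (94.7 to 468 against 4.04 to 11.8) and in batch B (185 to 1563 against 7.57 to 9.73). The fitted log2 fold change was 5.28 (95% interval 3.44 to 7.12), given without a test because this difference chose the gene.

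Ligand transcripts in pancreas were again near 0, and ligand from other organs was not measured. *Oxt*, which encodes oxytocin, had 1 read in WT, 1 in Lep(ob/ob) and 2 in CCKRi mice. *Avp*, which encodes vasopressin, had 1 read in all 16 libraries. Of the 7 genes listed with oxytocin and vasopressin, 3 were tested by edgeR and none passed or had an unadjusted p under 0.05. Of the 11 Gq and calcium signalling genes, 2 rose and 1 fell in Lep(ob/ob) mice, beside 9.07% of all genes in either direction, with a median log2 fold change of 0.18 (-0.02 over all genes). *Rgs2*, a brake on Gq signalling, ran from 64.0 to 128 normalized counts in WT and from 178 to 544 in Lep(ob/ob), with no overlap (1.46, SE 0.31, adjusted p = 0.0062). *Itpr3*, a calcium release channel, rose by 0.43 (SE 0.11, adjusted p = 0.0168). *Plcb4*, a phospholipase downstream of Gq, fell by 0.56 on the log2 scale (SE 0.11, adjusted p = 0.00486).

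**Figure D2:**
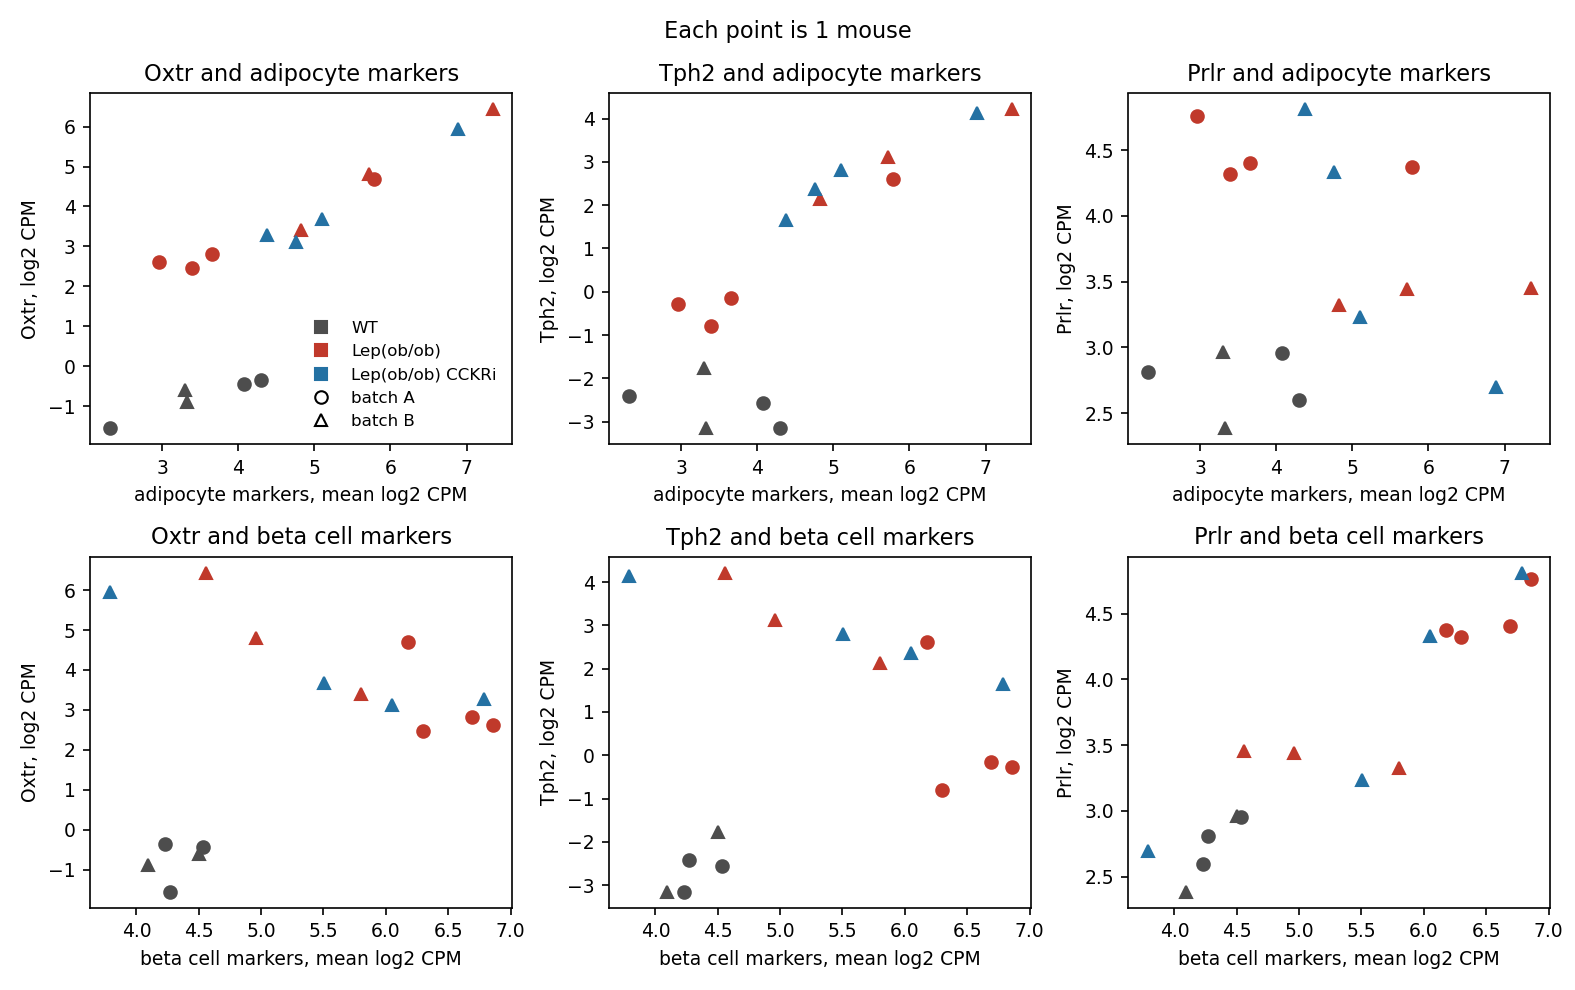
Log2 CPM of *Oxtr*, *Tph2* and *Prlr* in each mouse against the mean log2 CPM of adipocyte markers (upper row) and beta cell markers (lower row), with 1 point per mouse, colour for the group and shape for the batch. Among obese mice *Oxtr* and *Tph2* climb with adipocyte markers and *Prlr* climbs with beta cell markers, and the 5 WT mice are the lowest for *Oxtr* and *Tph2*, at adipocyte levels of 2.31 to 4.30.

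Adipocyte markers moved with *Oxtr* and *Tph2*. The 6 markers (*Adipoq*, *Plin1*, *Plin4*, *Cidec*, *Fabp4*, *Retn*) were detected in every group, with none at 0. In WT their summed level ran from 812 to 2612 normalized counts. Lep(ob/ob) mice ran from 1295 to 31578, and CCKRi mice from 4125 to 22963. None of the 6 passed the edgeR test in the 3 comparisons between groups. Between Lep(ob/ob) and WT their median log2 fold change was 1.59, and 4 of the 6 had an unadjusted p under 0.05, where 23.8% of all genes did. Macrophage markers were also high in the mice with the most *Oxtr*. The mean log2 CPM of the 5 macrophage markers was 6.40 in mouse 463, 5.15 in 461, 4.94 in 417 and 4.77 in 69, against 3.89 to 4.27 in WT and at most 4.04 in the other obese mice. The mean of the 4 fibroblast markers was 7.34 in mouse 463, 7.08 in 417 and 6.95 in 461, against at most 6.58 in WT, but 6.26 in mouse 69. The mean of the 5 lymphocyte markers was 2.89 in mouse 463 and 2.38 in 69, where the highest WT mouse had 2.55. No tested marker of these 3 lists passed the edgeR test in the comparisons between groups. Between CCKRi and Lep(ob/ob) mice, 5 of 5 macrophage markers (median log2 fold change -1.19) and 3 of 4 fibroblast markers (-1.09) had an unadjusted p under 0.05, where 14.3% of all genes did. Their part in the result was not tested. In the 11 obese mice *Oxtr* followed the mean log2 CPM of the adipocyte markers with r = 0.97 and rho = 0.97 (permutation p = 1e-05 for each, adjusted 0.0001, the smallest that 100000 permutations give). For *Tph2*, r was 0.95 (permutation p = 2e-05, adjusted 0.0001) and rho 0.95 (permutation p = 4e-05, adjusted 0.0002). Without the 2 mice farthest from the median, r was 0.93 for *Oxtr* and 0.94 for *Tph2*. Within batch B it was 0.99 and 0.98, and in the 7 untreated mice 0.98 and 0.97. With the beta cell markers the relation ran the other way, with r = -0.86 (permutation p = 0.00119, adjusted 0.00297) and rho = -0.84 (permutation p = 0.0024, adjusted 0.0048) for *Oxtr*. For *Tph2*, r was -0.82 (permutation p = 0.00208, adjusted 0.00416) and rho -0.89 (permutation p = 0.00043, adjusted 0.00143). Without the 2 mice farthest from the median beta cell level, r was -0.68 for *Oxtr* and -0.72 for *Tph2*.

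Lep(ob/ob) mice 441, 447 and 472 had adipocyte marker levels of 2.95, 3.39 and 3.66 in mean log2 CPM, inside the WT range of 2.31 to 4.30. Their *Oxtr* levels were 108, 94.7 and 123 normalized counts, where the highest WT mouse had 11.8. Their *Tph2* levels were 12.7, 8.16 and 14.0, where the highest WT mouse had 3.24. With the adipocyte markers in the model the *Tph2* fold change went from 6.33 to 4.35 on the log2 scale (SE 0.54), and the *Oxtr* estimate went from 5.28 to 3.69. With the beta cell markers the estimates were 7.63 for *Tph2* and 7.01 for *Oxtr*. Which cells held these transcripts was not tested.

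**Figure D3:**
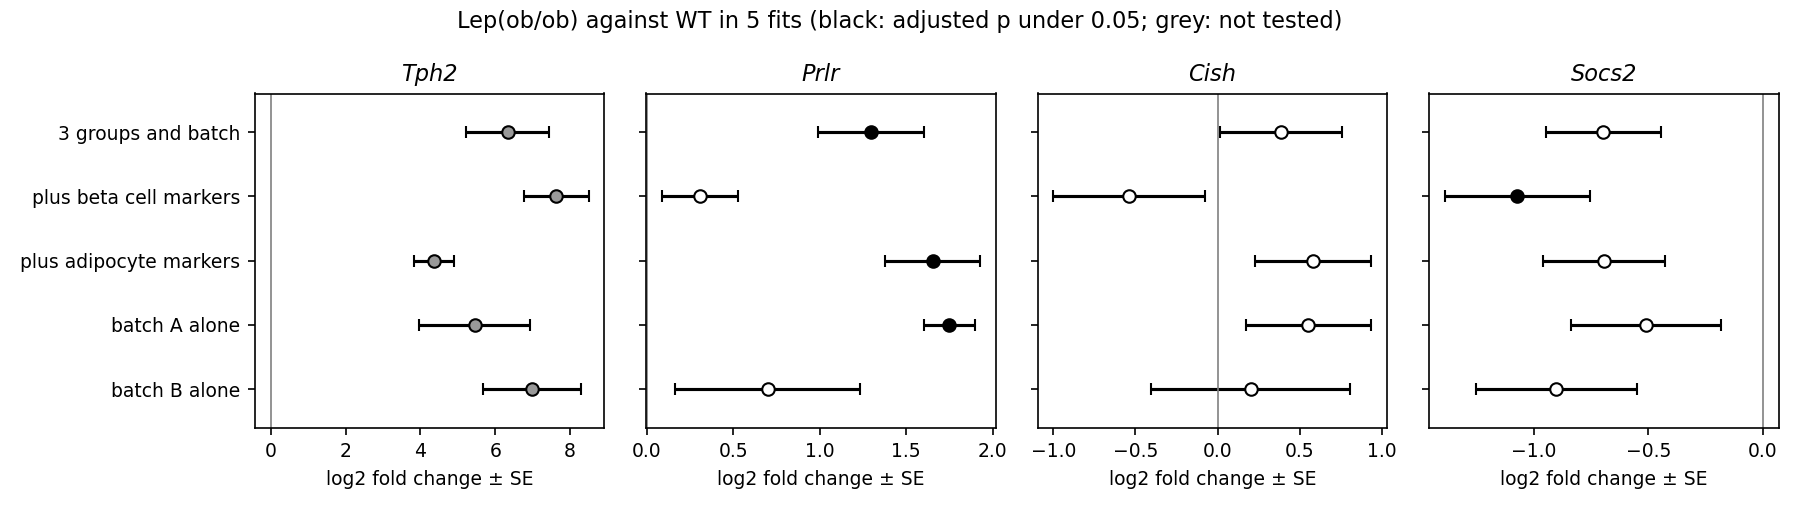
Log2 fold change between Lep(ob/ob) and WT (point, with SE bar) for *Tph2*, *Prlr*, *Cish* and *Socs2* in 5 edgeR fits, black where the adjusted p was under 0.05 and grey for *Tph2*, shown as a description, with each panel on its own axis. *Tph2*, which passed the low-count filter only through the obese mice, lies between 4.35 and 7.63, and *Prlr* lies between 0.31 and 1.75, with the call lost in batch B alone and with beta cell markers. The beta cell marker level did not overlap between WT and Lep(ob/ob) mice.

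The genes most like each one over the 16 mice were ranked by Pearson r of log2 CPM among 10865 genes with a mean log2 CPM of at least 1. For *Oxtr* they included *Npr3*, a receptor that clears natriuretic peptides (r = 0.98), *Lep* itself (0.98), *Mest* (0.98) and *Slc5a7*, a choline transporter (0.98). Within the 11 obese mice alone, r with *Oxtr* was 0.98 for *Npr3*, 0.92 for *Lep*, 0.95 for *Mest* and 0.97 for *Slc5a7*. For *Tph2* they were *Mest* (0.96), *Lep* (0.96) and *Cdk14* (0.96). The rankings of *Oxtr* and *Tph2* thus had *Mest* and *Lep* in common. *Oxtr* and *Tph2* themselves had r = 0.95 over all mice and 0.88 over the 11 obese mice. For *Prlr* they were *Prkacb*, a catalytic subunit of protein kinase A (0.98), *Gng12* (0.97) and *Phactr1* (0.96). The nearest genes were less alike for *Cish* (*Zfp746*, 0.86, *Serpina10*, 0.79, and *Slc37a1*, 0.78) and for *Socs2* (*Upp2*, 0.82, *Mipep*, 0.81, and *Kat5*, 0.76). Within the 11 obese mice, r in the same order was 0.88, 0.83 and 0.74 for *Cish* and 0.62, 0.67 and 0.47 for *Socs2*. These r values are descriptions. All come from the same 16 libraries, in which the groups differ.

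Because *Oxtr* and *Tph2* moved together, the bases upstream of all annotated exons are shown for both, 5′ to 3′ on the minus strand, from RefSeq windows of GRCm38.p6.
Oxtr, chr6:112489944-112490075: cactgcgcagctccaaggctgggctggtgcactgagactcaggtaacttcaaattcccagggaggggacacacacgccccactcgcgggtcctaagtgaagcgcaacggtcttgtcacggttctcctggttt
Tph2, chr10:115185023-115185272: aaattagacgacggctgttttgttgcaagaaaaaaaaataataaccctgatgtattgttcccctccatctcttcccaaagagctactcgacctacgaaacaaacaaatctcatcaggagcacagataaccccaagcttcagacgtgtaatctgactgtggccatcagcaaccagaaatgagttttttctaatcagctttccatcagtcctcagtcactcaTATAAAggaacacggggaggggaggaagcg
The capitals mark the letters TATAAA, searched on both strands, which begin 30 bases before the *Tph2* start and occur in 13.6% of all windows. No other window of the 9 held these letters.

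Per length, the order of the genes differed between lean and obese pancreas. As mean normalized count per kb of merged exon, the WT levels were 18.4 for *Cish*, 12.4 for *Socs2*, 7.68 for *Prlr*, 1.84 for *Oxtr*, 0.881 for *Htr2b*, 0.388 for *Tph2* and 0.138 for *Tph1*. In Lep(ob/ob) mice they were 90.8 for *Oxtr*, 35.1 for *Tph2*, 24.6 for *Cish*, 20.0 for *Prlr*, 7.69 for *Socs2*, 0.774 for *Htr2b* and 0.408 for *Tph1*. In CCKRi mice they were 84.9 for *Oxtr*, 49.5 for *Tph2*, 19.3 for *Cish*, 18.3 for *Prlr*, 9.84 for *Socs2*, 0.437 for *Htr2b* and 0.414 for *Tph1*. Without mouse 69 the CCKRi means were 37.9 for *Oxtr* and 30.6 for *Tph2*. In Lep(ob/ob) mice *Socs2*, at 5.19 to 10.2 per kb, lay below every mouse of *Prlr*, at 11.4 to 31.4, and above every mouse of *Htr2b*, at 0 to 2.98. Without mouse 463 the Lep(ob/ob) means were 51.6 for *Oxtr*, 27.3 for *Cish*, 21.6 for *Tph2* and 21.2 for *Prlr*, so the place of *Tph2* above *Cish* rests on that mouse. Other neighbours in that order overlapped in range, *Oxtr* (19.8 to 326) with *Tph2* (2.84 to 116) among them. In WT the ranges of *Prlr* (5.92 to 8.88) and *Oxtr* (0.843 to 2.46) did not meet.

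The comparison of CCKRi with untreated Lep(ob/ob) mice asked whether blocking CCK receptors changed these genes. None of the 5 genes tested passed by edgeR or DESeq2, and none had an unadjusted p under 0.05, where 0.0586% of the 13660 genes passed by edgeR. *Oxtr* stood at 1083, 224, 152 and 169 normalized counts in mice 69, 72, 74 and 76, all inside the Lep(ob/ob) range of 94.7 to 1563. Its log2 difference was -0.67 (95% interval -2.16 to 0.83, adjusted p = 0.659), which became -1.83 (adjusted p = 0.168) without mouse 69 and 0.37 without Lep(ob/ob) mouse 463. *Tph2* stood at 306, 121, 89.5 and 53.6 (difference -0.32, 95% interval -1.78 to 1.13, adjusted p = 0.841). *Prlr* stood at 112, 163.9, 354.6 and 493.4, with mouse 69 and mouse 72 below the lowest Lep(ob/ob) mouse and mouse 76 above the highest (difference 0.36, 95% interval -0.40 to 1.12, adjusted p = 0.640). *Cish* stood at 57.4, 87.6, 218 and 132 (difference 0.12, 95% interval -0.83 to 1.07, adjusted p = 0.913). *Socs2* stood at 69.2, 61.5, 112 and 132 (difference 0.13, 95% interval -0.52 to 0.78, adjusted p = 0.858). The intervals allow changes of more than 1 on the log2 scale for *Oxtr*, *Tph2*, *Prlr* and *Cish*. All CCKRi mice were in batch B, and the exact permutation test against the 3 Lep(ob/ob) mice of that batch gave p from 0.4 to 0.771, where the smallest possible was 0.0286. No gene of the 7 lists passed in this comparison by edgeR, and in single lists 0 to 2 had an unadjusted p under 0.05, where 14.3% of all genes did.

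Side by side, the proglumide mice 69 and 72 had *Prlr* levels of 112 and 163.9, and the lorglumide mice 74 and 76 had 354.6 and 493.4. For *Oxtr* the proglumide mice had 1083 and 224, and the lorglumide mice 152 and 169. The mean log2 CPM of beta cell markers was 3.79 and 5.503 in the proglumide mice and 6.05 and 6.78 in the lorglumide mice. That of adipocyte markers was 6.89 and 5.10 in the former and 4.76 and 4.38 in the latter. The doses differed and each drug had 2 mice, so the drugs were not compared.

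**Figure D4:**
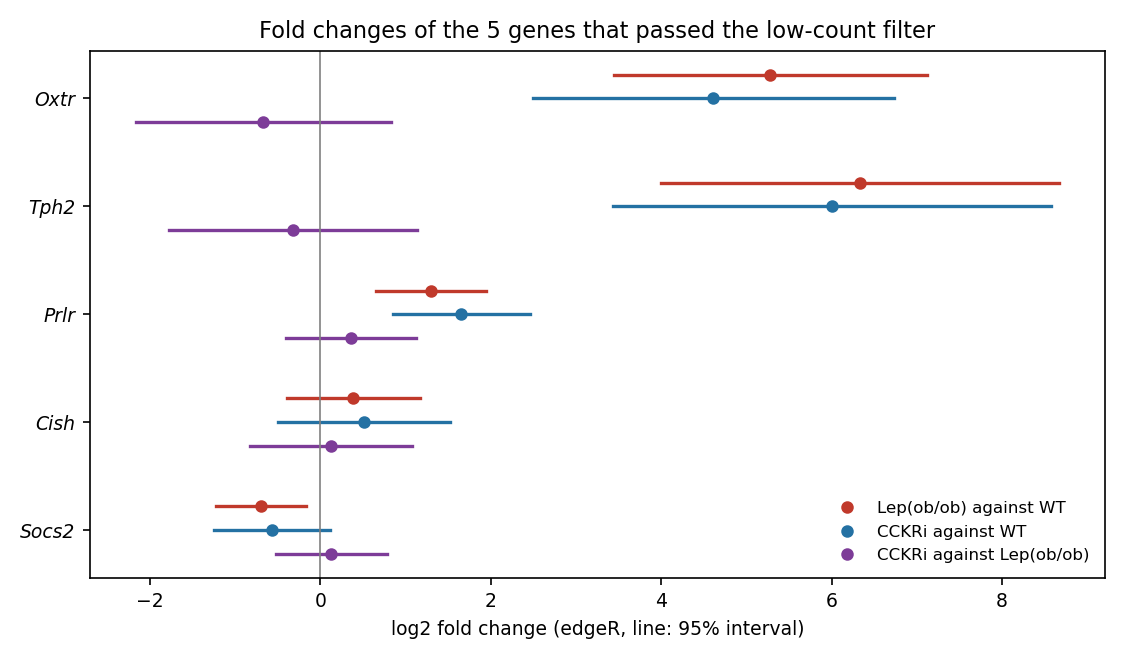
Log2 fold change with 95% interval from edgeR for the 5 genes that passed the low-count filter, in the 3 comparisons between groups. The intervals for CCKRi against Lep(ob/ob) all include 0, and those of *Prlr* against WT lie above 0. *Oxtr* and *Tph2* against WT are shown as descriptions without a test.

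CCKRi mice were also compared with the same 5 WT mice, so this comparison shares its controls with that of Lep(ob/ob) mice and is not independent of it. *Tph2* was higher in CCKRi mice in 4 of 4 with no overlap (fitted log2 fold change 6.01, SE 1.22, 95% interval 3.44 to 8.58), given as a description because it passed the filter only through the obese mice. The ratio of means was 128, and the counting error of the 4 WT reads alone gives 49.8 to 468. Without CCKRi mouse 69 the ratio was 78.8. *Prlr* was higher by 1.66 (SE 0.38, adjusted p = 0.0135), with CCKRi mouse 69 inside the WT range. In this comparison 5.57% of the 13660 genes passed in either direction, 4.22% were higher, and 6.27% were higher with no overlap. The *Prlr* call was lost with beta cell markers in the model (0.38, adjusted p = 0.412), in batch B alone (1.33, adjusted p = 0.394), with only these groups in the fit (1.33, adjusted p = 0.217) and with the proglumide mice alone (0.64, adjusted p = 0.318). *Cish* (0.51, adjusted p = 0.668) and *Socs2* (-0.57, adjusted p = 0.419) did not pass. *Oxtr* had a fitted fold change of 4.61 on the log2 scale, again without a test (3.46 without mouse 69), and all 4 CCKRi mice lay above all WT mice. In the serotonin list *Ddc* (1.57, adjusted p = 0.0260), *Slc18a1*, a vesicle transporter of amines (1.44, adjusted p = 0.0347), and *Slc6a4* (0.97, adjusted p = 0.0365) were higher, each with overlapping ranges. Of the Gq list, *Rgs2* was higher (1.82, adjusted p = 0.00811) and *Plcb4* lower (-0.53, adjusted p = 0.0458), both with no overlap.

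Other cell types that could carry these genes were read in the same way. For *Tph1*, which mast cells and gut endocrine cells make, 7 of 7 mast cell markers were detected in every group, with sums that overlapped among the groups (WT, 224 to 628 normalized counts, Lep(ob/ob), 181 to 640, CCKRi, 159 to 536). *Kit*, which other cells also express, fell by 1.19 on the log2 scale in Lep(ob/ob) mice (adjusted p = 0.00515), whereas *Cpa3*, *Mcpt4*, *Tpsb2* and *Cma1* had log2 fold changes of 0.94 to 1.40 and did not pass. The mean log2 CPM of mast cell markers was highest in mice 463 (2.77), 69 (2.51) and 461 (2.44), the 3 mice with the most *Tph1*, which were also high in *Oxtr* and *Tph2*. Of the 6 intestine markers, *Alpi* was at 0 in every library and *Cdx2* had no normalized count. *Fabp2* had 0 reads in WT and untreated Lep(ob/ob) mice and at most 3 in CCKRi mice, and *Lct* had at most 2 in any mouse. The summed level, which was mostly *Vil1*, was at most 29.98 in WT mice and at least 61.4 in obese mice, with a maximum of 266. *Vil1*, which other epithelia also express, ran from 13.0 to 26.0 normalized counts in WT mice. It ran from 62.9 to 265 in untreated obese mice and from 44.1 to 172 in CCKRi mice. Against WT, *Vil1* rose by 2.88 on the log2 scale in Lep(ob/ob) mice, with no overlap (adjusted p = 8.08e-05, edgeR). In CCKRi mice it rose by 3.14, also with no overlap (adjusted p = 0.000226, edgeR). *Muc2* reached 16.5 in CCKRi mice. The 4 nerve and Schwann cell markers summed to 32.9 to 79.5 in WT mice. The sum was 37.4 in mouse 463 and 51.1 in mouse 69, which had the most *Tph2*, and 164.9 in mouse 74, which had the highest sum. It exceeded the *Tph2* level in Lep(ob/ob) mice 441, 472 and 447 (68.5, 74.7 and 68.6) and in CCKRi mice 74 and 76 (164.9 and 120). *Elavl4*, the neuronal marker of that list, was higher in CCKRi than in WT mice (2.65, adjusted p = 0.0204) and did not pass in Lep(ob/ob) mice (1.38, adjusted p = 0.135). Their part in the results was not tested.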

How the data were processed

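RNA-seq of whole pancreas gave 16 libraries, 1 per mouse. Per the submitters' processing notes, the authors used Trim Galore 0.6.7 and cutadapt 3.5 for trimming and STAR 2.7.9 for alignment to mm10. The read counter and its strand setting are not given in the sources used here. The deposited raw counts are reads per gene symbol. For the deposited normalized signal, the authors divided each mouse's raw counts by a size factor (0.617 to 1.44), as checked on the values. The files hold no other columns of per-sample values.

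Raw counts were fitted with edgeR 4.0.16 in R 4.3.3 (filterByExpr, TMM normalization, quasi-likelihood test, Benjamini-Hochberg adjustment over all 13660 genes tested). The model held the 3 groups and the sequencing batch, and a call needed an adjusted p under 0.05. Batch was an added covariate, since the study's text names DESeq2 without covariates. Genotype by batch was fitted on the WT and untreated mice. Log2 CPM used a prior count of 2. Exact permutation tests, two-sided and within batches, used log2 of the normalized count plus 1 in Python 3.11.15 with scipy 1.17.1. Correlations used 100000 permutations. On simulated counts of the 13660 genes for the Lep(ob/ob) and WT comparison, the fit recovered 76% of 100 genes changed by a log2 of 1 and 96% of 100 genes changed by a log2 of 2. The changed genes were drawn from those with an average log2 CPM above 1, and the simulated means held no batch difference. Recovery for genes with fewer counts or with batch differences was not tested.

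Besides the 7 genes, genes named are *Prl*, *Oxt* and *Avp*, up to 4 called genes per list and comparison with the smallest p, and the 5 genes most like *Oxtr* and 3 most like each other gene that was tested, of which 1 is not reported here. *Lep*, *Vil1*, *Kit*, *Muc2*, *Fabp2*, *Lct*, *Ppy*, *Elavl4* and overlapping genes were named after their values were seen. The 7 genes and all lists were chosen with earlier results of these data known. Gene positions, exon lengths and shared 50-base stretches come from GENCODE M21 on GRCm38, the build of the files, and promoter windows from RefSeq. Alternatives were DESeq2 1.42.0, other normalizations and filters, other model terms, single batches, single drugs, another pseudocount and leaving out each mouse. All p-values measure the spread between these mice.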

Additional observations from a re-analysis of the deposited data

Results flagged for a closer look

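Of 21 groups of values checked for 1 mouse far from the others, 2 stood out. Chance alone marks about 1 group in 20 where values are normally distributed. That rate does not hold for a group with reads in 1 mouse only, which is always marked, and both groups are of this kind. *Tph1* in CCKRi mice was 10.2 normalized counts in mouse 69 and 0 in the other 3 mice, so that the gap took the whole range (ratio of gap to range 1). *Htr2b* in CCKRi mice was 3.73 in mouse 72 and 0 in the others (ratio 1). Both rest on few reads, 13 and 4, and mouse 69 also had the highest *Tph2*, *Oxtr* and adipocyte marker levels of the CCKRi group and the lowest beta cell marker level.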

How the results depend on the processing

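No paired analysis was possible because the groups share no mouse numbers. Against WT, the 2 calls (*Prlr*, and *Tph2*, whose call is no support as it passed the filter only through the obese mice) became 1 with at least 10 counts in every mouse, which drops *Tph2* from the test, 1 in batch A alone (*Prlr*) and 0 in batch B alone, and stayed 2 in the other 9 fits, though with beta cell markers they were *Tph2* and *Socs2*. The calls among all genes tested differed between these fits, with 1239 in the main fit, 1145 in batch A alone and 8 in batch B alone. They were 798 without batch, 782 with at least 10 counts and 4077 with beta cell markers. The 0 in batch B alone thus comes from a fit in which few genes of any kind passed. Leaving out 1 mouse gave 2 calls of the genes described here, or 3 without WT mouse 5489, where *Socs2* passed. In CCKRi mice against WT the 2 calls became 1 with at least 10 counts, with beta cell markers, with only the groups compared and with proglumide alone, and 0 in batch B alone. The permutation test gained *Socs2* (2 calls became 3) with another pseudocount, with log2 TMM CPM and without mouse 5489 or 472. These counts include *Tph2*, which also entered the adjustment. Gains that rest on its small p are no support, and adjustment without *Tph2* was not run. The interaction had 0 calls, and 0 to 1 on leaving out 1 mouse. The smaller fits have fewer mice, and the cause of the other changes was not tested.

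None of the 5 genes tested passed in CCKRi against Lep(ob/ob) mice in any fit, and the sign of these differences was unstable. Without batch, *Prlr* was -0.12 (DESeq2 -0.13), *Cish* -0.35 (DESeq2 -0.35) and *Tph2* 0.53 (DESeq2 0.50). With proglumide alone, *Prlr* was -0.67, *Cish* -0.65, *Socs2* -0.39 and *Tph2* 0.25. With lorglumide alone, *Oxtr* was -2.001, *Prlr* 0.97, *Cish* 0.64, *Socs2* 0.53 and *Tph2* -1.30. With adipocyte markers *Tph2* was 0.27. On leaving out 1 mouse, *Oxtr* ran from -1.83 to 0.37, *Prlr* from -0.060 to 0.64, *Cish* from -0.30 to 0.43, *Socs2* from -0.078 to 0.29 and *Tph2* from -1.01 to 0.38. *Cish* against WT was -0.54 in Lep(ob/ob) and -0.51 in CCKRi mice with beta cell markers, -0.25 in CCKRi mice with proglumide alone, and its interaction ran from -0.95 to 0.24 on leaving out 1 mouse. Over all genes, the calls in this comparison of obese mice were 8 by edgeR, 92 by DESeq2 with batch and 2518 by DESeq2 without batch. Depth limits *Tph1*, *Htr2b* and the WT level of *Tph2*.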
